A study of Mus musculus with 16 samples.

Results

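The gene set described here holds 5 receptors and co-receptors of transforming growth factor beta (TGFB): Tgfbr1, Tgfbr2, Tgfbr3, Eng and Acvrl1. They were chosen by name from the 30385 gene entries of an RNA sequencing experiment on mouse epicardial cells, the outer cell layer of the heart. All 5 passed the filter on low counts and are among the 16835 genes tested. The cells came from embryos at E11.5 on a mixed C57BL/6 SV129 background, and 2 immortalized lines were compared: wt, of genotype Tgfbr3+/+:Immorto, and mt, of genotype Tgfbr3-/-:Immorto. Both lines, the control included, carry the Immorto allele, a temperature-sensitive T antigen that was kept active during growth at 33 °C and switched off at 37 °C for the experiment. Each line was given vehicle, 250 pM TGFB1, 250 pM TGFB2 or 5 nM BMP2 for 72 h, with 2 libraries in each of the 8 groups and 16 in all. There was 1 line per genotype, so genotype and line cannot be told apart. The labels do not say that replicates were separate cultures, so p values measure only the spread between these libraries, which may be technical.

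TGFB ligands bind a type II receptor, the kinase encoded by Tgfbr2, which then phosphorylates a type I receptor. The usual type I partner is ALK5, encoded by Tgfbr1, which activates SMAD2 and SMAD3; an alternative partner best known in endothelium is ALK1, encoded by Acvrl1, which activates SMAD1 and SMAD5 and also serves BMP9 and BMP10. The co-receptors betaglycan, encoded by Tgfbr3, and endoglin, encoded by Eng, have no kinase of their own and present ligands to the signalling receptors; betaglycan matters most for TGFB2, which binds the type II receptor poorly by itself. In the embryonic heart, TGFB signalling is known for its part in the change of epicardial cells into mesenchyme and smooth muscle, and mice without Tgfbr3 fail to form normal coronary vessels.

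The members lie at separate loci. In build mm9, as deposited, Tgfbr1 spans chr4:47366176-47427796 on the plus strand and Tgfbr2 chr9:115996812-116084481 on the minus strand. Tgfbr3 spans chr5:107535588-107718614 on the minus strand, Eng chr2:32502114-32538189 on the plus strand and Acvrl1 chr15:100958967-100975767 on the plus strand. The 3 promoters below, each 250 bases before to 50 after a gene's start, belong to members whose transcripts rose (Tgfbr1, Eng) or fell (Tgfbr2) with TGFB in at least 1 line, and are shown because receptor-activated SMADs bind short motifs of this kind. They are RefSeq sequences of build GRCm38.p6, which differs from the deposited build: chr4:47352972-47353271 on the plus strand for Tgfbr1, chr9:116175314-116175613 on the minus strand for Tgfbr2 and chr2:32646345-32646644 on the plus strand for Eng. Of the 5 members, 3 matched an entry at the gene's start, and Tgfbr3 and Acvrl1 did not. Capitals mark the SMAD core motif AGAC or its reverse complement GTCT, the GC-rich SMAD motif GGCGCC and the GC box GGGCGG or its reverse complement CCGCCC.
Tgfbr1: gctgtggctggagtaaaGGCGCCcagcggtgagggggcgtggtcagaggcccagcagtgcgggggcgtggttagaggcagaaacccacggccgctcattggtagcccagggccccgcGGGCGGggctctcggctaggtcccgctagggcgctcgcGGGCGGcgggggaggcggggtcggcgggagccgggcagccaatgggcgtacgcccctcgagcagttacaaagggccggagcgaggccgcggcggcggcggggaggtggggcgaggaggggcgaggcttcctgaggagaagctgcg
Tgfbr2: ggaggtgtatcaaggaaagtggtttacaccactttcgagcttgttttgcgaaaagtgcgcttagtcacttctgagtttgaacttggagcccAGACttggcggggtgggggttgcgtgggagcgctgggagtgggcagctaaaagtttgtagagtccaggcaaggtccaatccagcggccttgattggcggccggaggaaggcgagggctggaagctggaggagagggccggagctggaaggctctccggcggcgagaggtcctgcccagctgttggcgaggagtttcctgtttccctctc
Eng: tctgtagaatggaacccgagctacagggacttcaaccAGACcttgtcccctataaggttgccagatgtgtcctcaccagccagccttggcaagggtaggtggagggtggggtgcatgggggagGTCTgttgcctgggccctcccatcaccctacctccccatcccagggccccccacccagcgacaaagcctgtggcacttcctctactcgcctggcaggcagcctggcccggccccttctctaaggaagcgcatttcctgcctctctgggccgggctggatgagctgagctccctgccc
The Tgfbr1 promoter held 1 GC-rich SMAD motif and 2 GC boxes and no AGAC core, at a GC content of 74.7%. Another RefSeq promoter entry of Tgfbr1, at chr4:47385966-47386265 and so not at the gene's start, is not shown. That entry held 2 AGAC or GTCT cores and none of the GC-rich motifs, at a GC content of 52.0%. The Tgfbr2 promoter held 1 AGAC core and the Eng promoter 2, and neither held any of the GC-rich motifs. The motifs searched, on both strands and without overlap here, are common in promoters of this length: of 32851 RefSeq promoters, 88% held AGAC or GTCT, 11.9% held GGCGCC and 35.7% held GGGCGG or CCGCCC. The palindrome GTCTAGAC, present in 0.213% of promoters, was in none of the 3. These matches describe letters in a window and are not binding sites.

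Levels below are counts per 1e+06 reads of a library, scaled by the trimmed mean of M values (CPM), and are given for replicates 1 and 2 in that order. Library totals ran from 6410320 to 31813921 reads, and member reads from 51 (Eng) to 4127 (Tgfbr2) in a library. Changes are log2 fold changes ± SE, each group having n = 2 libraries, and a gene is called where the p of the edgeR quasi-likelihood test, adjusted over 16835 genes by the Benjamini-Hochberg method, is under 0.05. A value called blocked comes from that test with replicate number added to the model, which pairs the libraries. The cells expressed the epicardial markers at a summed 4123 to 4700 CPM in vehicle and BMP2 libraries and at 1021 to 1895 CPM with TGFB. Smooth muscle markers summed to 895 to 2832 and 3090 to 5277 CPM. Of these, Acta2 ran from 344 to 3109 CPM and Tagln from 322 to 2204 over the 16 libraries. Myh11 ran only from 0.265 to 3.24 CPM. Blood markers summed to 9.12 to 29.6 CPM in vehicle and BMP2 libraries and to 22.2 to 36.6 with TGFB. Fibroblast markers summed to 6892 to 18712 and 6079 to 8690 CPM, and in vehicle to 9781 to 15364 in wt and 15579 to 18712 in mt cells. The part of these shifts in the members' values was not tested. The 4 mt replicate 1 libraries stand apart: cardiomyocyte markers without Tnnt2, a subset chosen after its values were seen, summed to 59.7 to 107 CPM there and to 4.38 to 22.8 CPM in the other 12 libraries, with the heart myosin Myh6 at 14.6 to 28.4 against 0 to 0.44 CPM. With Tnnt2 the cardiomyocyte list summed to 62.0 to 127 CPM in mt and 152 to 248 in wt vehicle, and to 226 to 274 in mt and 769 to 845 in wt cells under TGFB1, lower in mt cells each time. Results in mt cells are therefore also given without these 4 libraries, which leaves 1 mt library per group, assumed to vary like the wt groups. In such bulk samples, fewer cells of a type and less RNA per cell cannot be told apart.

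**Figure D1:**
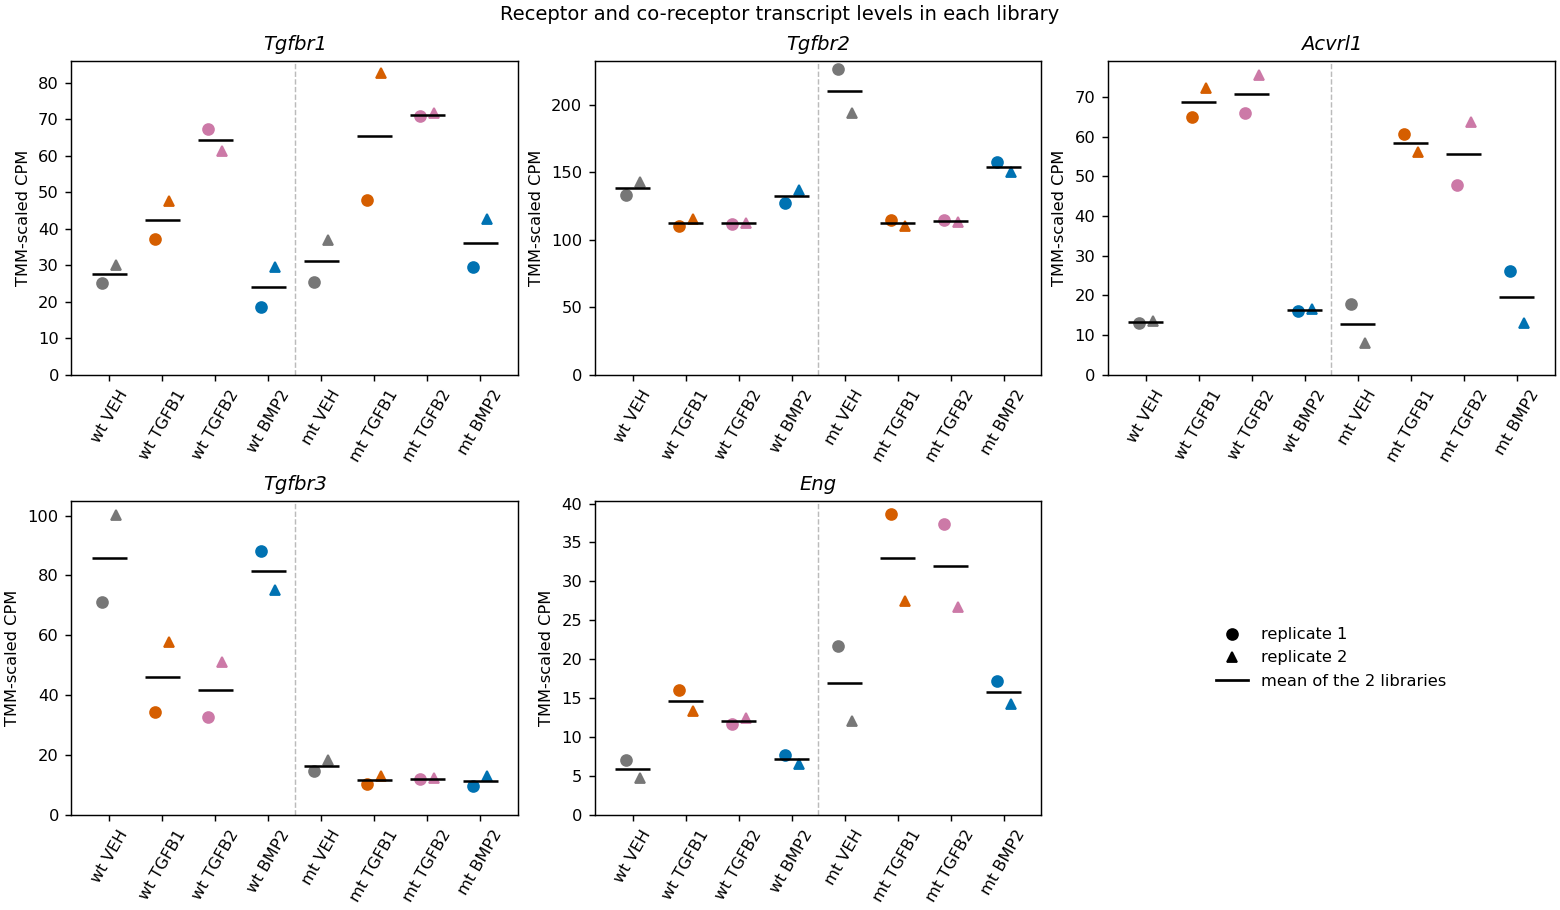
TMM-scaled CPM of each of the 5 genes (vertical axes from 0) in each of the 16 libraries, by group (horizontal axes); circles are replicate 1, triangles replicate 2, and bars the mean of the 2 libraries. Acvrl1 stands at 47.7 to 75.7 CPM in the 8 TGFB libraries and at 7.91 to 26.3 in the 8 others, Tgfbr2 at 110 to 115 with TGFB and at 128 to 227 without, and Tgfbr3 at 9.72 to 18.2 in the 8 mt libraries and at 32.5 to 100.3 in the 8 wt libraries.

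Tgfbr3, the targeted gene, which encodes betaglycan, was lower in the mt line in every treatment and fell with TGFB2 in wt cells. In wt cells it stood at 71.0 and 100.3 CPM in vehicle, 34.4 and 57.6 with TGFB1, 32.5 and 51.0 under TGFB2, and 88.0 and 75.0 with BMP2. In mt cells it stood at 14.6 and 18.2 CPM in vehicle, 10.3 and 12.8 with TGFB1, 11.8 and 12.1 under TGFB2, and 9.72 and 13.1 with BMP2. No mt library reached the lowest wt library, and in wt cells the 4 TGFB libraries lay below the 4 vehicle and BMP2 libraries. The mt libraries still held 70 to 348 reads of the gene. The sources used here do not state the deleted part of the null allele, and reads outside it would remain. In vehicle the mt line was 5.22-fold lower (-2.39 ± 0.32, adjusted p = 0.0019), and its values were -1.99 ± 0.31 under TGFB1 (adjusted p = 0.0073), -1.80 ± 0.31 under TGFB2 (adjusted p = 0.012) and -2.82 ± 0.33 under BMP2 (7.08-fold, adjusted p = 0.00097). Of the 5 members, 2 were called between the lines in vehicle, 1 under TGFB1, 2 under TGFB2 and 1 under BMP2, where 3.58%, 1.79%, 1.91% and 3.28% of all genes tested were called. Without the 4 mt replicate 1 libraries Tgfbr3 stood at -2.24 in vehicle (adjusted p = 0.078), -1.85 under TGFB1 (0.14), -1.78 under TGFB2 (0.18) and -2.63 under BMP2 (0.038). Of single libraries, the call under TGFB1 was lost without either mt TGFB1 library or wt TGFB1 replicate 2 (-2.16 to -1.57, adjusted p = 0.074 to 0.091), and that under TGFB2 without either mt TGFB2 library or wt TGFB2 replicate 2 (-1.82 to -1.44, adjusted p = 0.14 to 0.16).

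Within wt cells, the fall of Tgfbr3 was -1.04 ± 0.30 with TGFB2 (2.05-fold, adjusted p = 0.031) and -0.97 ± 0.25 for the mean of both TGFB ligands (adjusted p = 0.014). With TGFB1 alone it was -0.89 ± 0.30, which missed the threshold (adjusted p = 0.059, blocked 0.0037). These 3 contrasts share the 2 wt vehicle libraries, 71.0 and 100.3 CPM, which differed from each other by more than the BMP2 pair. The TGFB2 call was lost without the 4 mt replicate 1 libraries, which enter only its spread (-1.04, adjusted p = 0.060). Without wt vehicle replicate 2 the TGFB2 value was -0.77 (adjusted p = 0.21) and the mean TGFB value -0.70 (0.18); without wt TGFB2 replicate 1 they were -0.75 (0.24) and -0.83 (0.050). In mt cells the transcript that remained stood at -0.50 ± 0.31 with TGFB1 (adjusted p = 0.32), -0.45 ± 0.31 with TGFB2 (0.37) and -0.51 ± 0.31 with BMP2 (1), none of them called. The difference between the lines in the mean TGFB effect was 0.49 ± 0.37 with a 95% interval of -0.322 to 1.301 (adjusted p = 0.96), so a difference was not shown. BMP2 left the wt level at -0.07 ± 0.30 relative to vehicle (adjusted p = 0.99).

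Eng is the gene of the other co-receptor, endoglin, which is abundant in endothelium and binds BMP9 and BMP10 as well as TGFB complexes. It was called as higher with TGFB1 and TGFB2 in wt cells and for the mean of both ligands in mt cells. Between the lines it was called as higher in mt cells in vehicle and with TGFB2. In wt cells it stood at 6.97 and 4.75 CPM in vehicle, 15.96 and 13.4 with TGFB1, 11.6 and 12.4 under TGFB2, and 7.67 and 6.56 with BMP2. In mt cells it stood at 21.7 and 12.05 CPM in vehicle, 38.6 and 27.5 with TGFB1, 37.3 and 26.7 under TGFB2, and 17.2 and 14.3 with BMP2. Within each line the 4 TGFB libraries lay above the 4 others, and within each treatment both mt libraries lay above both wt libraries. The mt replicate 1 library exceeded replicate 2 in 4 of 4 groups, by 1.21 to 1.80 times. In wt cells replicate 1 was also the higher in 3 of 4 groups, at 0.93 to 1.47 times replicate 2 over the 4. Eng held 51 reads in the library with the fewest, and its entry overlaps that of Fpgs on the other strand, where the sources used here do not state whether counting used strand. Fpgs stood at 40.1 and 33.2 CPM in wt vehicle and at 28.3 and 22.1 with TGFB1.

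The rise of Eng in wt cells was 1.32 ± 0.32 with TGFB1 (2.50-fold, adjusted p = 0.012), 1.04 ± 0.32 with TGFB2 (2.05-fold, adjusted p = 0.038) and 1.18 ± 0.29 for the mean of both (adjusted p = 0.0095). Without wt vehicle replicate 2, the lowest library, these were 1.06 (adjusted p = 0.12), 0.78 (0.24) and 0.92 (0.13); the TGFB1 call was also lost without wt TGFB1 replicate 1 (1.15, adjusted p = 0.075), and the TGFB2 call without wt vehicle replicate 1 or either wt TGFB2 library (0.98 to 1.33, adjusted p = 0.053 to 0.14). In mt cells single ligands missed the threshold at 0.97 ± 0.31 with TGFB1 (adjusted p = 0.053, blocked 0.0018) and 0.93 ± 0.31 with TGFB2 (adjusted p = 0.061, blocked 0.0024). Their mean was called at 0.95 ± 0.28 (adjusted p = 0.028), and at 1.17 without the 4 mt replicate 1 libraries (adjusted p = 0.046). That call was lost without mt TGFB1 replicate 1 (0.81, adjusted p = 0.069), mt TGFB2 replicate 1 (0.82, 0.080) or mt vehicle replicate 2 (0.58, 0.21). The mean TGFB effect did not differ detectably between the lines (-0.23 ± 0.38, 95% interval -1.06 to 0.60, adjusted p = 1). BMP2 gave 0.27 ± 0.33 in wt cells (adjusted p = 0.97) and -0.10 ± 0.31 in mt cells (adjusted p = 1).

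Between the lines, Eng was 2.87-fold higher in mt than in wt cells in vehicle (1.52 ± 0.32, adjusted p = 0.024) and 2.66-fold higher with TGFB2 (1.41 ± 0.31, adjusted p = 0.043). It stood at 1.17 ± 0.31 with TGFB1 (adjusted p = 0.097, blocked 0.0029) and at 1.15 ± 0.33 with BMP2 (adjusted p = 0.084, blocked 0.0048). Without the 4 mt replicate 1 libraries the values were 1.04 in vehicle (adjusted p = 0.27), 0.91 with TGFB1 (0.26), 1.15 with TGFB2 (0.20) and 1.02 with BMP2 (0.14), and neither call remained. The vehicle call was also lost without wt vehicle replicate 1 (1.82, adjusted p = 0.064) or replicate 2 (1.26, 0.24), and the TGFB2 call without any 1 of its 4 libraries (1.15 to 1.63, adjusted p = 0.12 to 0.34). Of the endothelial markers, a subset chosen after its values were seen (Pecam1, Cdh5, Tie1, Emcn, Cldn5, Esam and Erg) was summed. It came to 2.48 to 4.44 CPM (median 2.90) in the 4 mt replicate 1 libraries. In the other 12 it came to 0.555 to 5.01 (median 0.92), the highest in wt TGFB1 replicate 1. The whole list, with Kdr, Tek and Egfl7, summed to 55.9 to 60.9 CPM in wt and 38.5 to 44.8 in mt vehicle, and to 27.9 to 37.4 in wt and 23.3 to 28.8 in mt cells under TGFB2. Their part in the level of Eng was not tested.

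**Figure D2:**
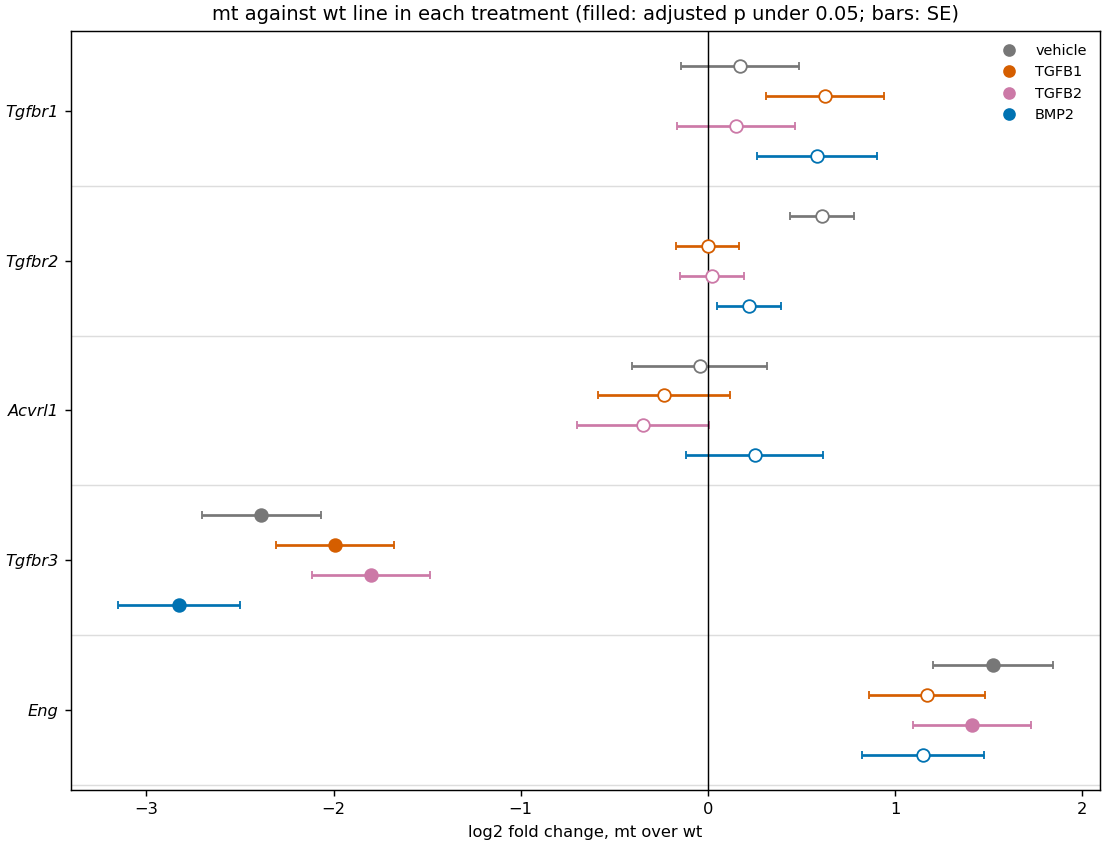
Log2 fold change of mt over wt (horizontal axis) for each of the 5 genes in vehicle, TGFB1, TGFB2 and BMP2; bars are the SE, and filled points have an adjusted p under 0.05. Tgfbr3 lies between -2.82 and -1.80 in all 4 treatments and Eng between 1.15 and 1.52, with the other 3 genes between -0.35 and 0.63.

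Tgfbr2, the type II kinase that binds TGFB directly, fell with TGFB in mt cells, and its level in the TGFB libraries was nearly the same in both lines. In wt cells it stood at 133 and 143 CPM in vehicle, 110 and 115 with TGFB1, 112 and 113 under TGFB2, and 128 and 137 with BMP2. In mt cells it stood at 227 and 194 CPM in vehicle, 115 and 110 with TGFB1, 115 and 113 under TGFB2, and 158 and 150 with BMP2. The 8 TGFB libraries of both lines covered a narrow range of 110 to 115 CPM, below all 8 other libraries, and both mt vehicle libraries were above every wt library. The fall in mt cells was -0.90 ± 0.17 with TGFB1 (1.87-fold, adjusted p = 0.0039) and -0.89 ± 0.17 with TGFB2 (1.85-fold, adjusted p = 0.0039). Without the 4 mt replicate 1 libraries these were -0.82 (adjusted p = 0.10) and -0.78 (0.12), and the mean of both ligands, -0.89 ± 0.14 (adjusted p = 0.00085), was -0.80 (0.049). No library left out singly ended these calls. In wt cells the values were -0.29 ± 0.17 (adjusted p = 0.28) and -0.30 ± 0.17 (adjusted p = 0.26), with a mean of -0.30 ± 0.14 (adjusted p = 0.17, DESeq2 0.024), so the smaller difference in wt cells was not called by edgeR.

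The lines themselves differed in Tgfbr2 by 0.61 ± 0.17 in vehicle, which missed the threshold (1.52-fold, adjusted p = 0.076, blocked 0.019, DESeq2 0.00012). The value was 0.49 without the 4 mt replicate 1 libraries (adjusted p = 0.61). With TGFB1 and TGFB2 the difference of mt from wt was -0.0017 ± 0.17 and 0.02 ± 0.17, with 95% intervals of -0.37 to 0.37 and -0.35 to 0.39. The difference between the lines in the mean TGFB effect was -0.60 ± 0.21 and was not called by edgeR (unadjusted p = 0.013, adjusted p = 0.38, DESeq2 0.017; 0.184% of genes called). It was the only one of the 5 members with an unadjusted p under 0.05 for that difference. With BMP2, Tgfbr2 stood at -0.06 ± 0.17 in wt cells (adjusted p = 0.99) and at -0.45 ± 0.17 in mt cells, where both BMP2 libraries lay below both vehicle libraries (unadjusted p = 0.021, adjusted p = 1).

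Tgfbr1, which encodes the type I kinase ALK5, rose with TGFB2 in both lines and with TGFB1 in mt cells. In wt cells it stood at 25.2 and 30.2 CPM in vehicle, 37.1 and 47.7 with TGFB1, 67.4 and 61.4 under TGFB2, and 18.5 and 29.5 with BMP2. In mt cells it stood at 25.3 and 36.9 CPM in vehicle, 48.0 and 82.8 with TGFB1, 71.0 and 71.7 under TGFB2, and 29.4 and 42.8 with BMP2. Within each line the 4 TGFB libraries lay above the 4 others, and mt TGFB1 had the widest pair. The rise was 1.22 ± 0.32 with TGFB2 in wt cells (2.33-fold, adjusted p = 0.018), 1.20 ± 0.32 with TGFB2 in mt cells (2.29-fold, adjusted p = 0.023) and 1.07 ± 0.32 with TGFB1 in mt cells (2.10-fold, adjusted p = 0.039). With TGFB1 in wt cells it was 0.62 ± 0.32 (1.53-fold, adjusted p = 0.22, blocked 0.035). The mean of both ligands was called in wt (0.92 ± 0.28, adjusted p = 0.033) and mt cells (1.13 ± 0.29, adjusted p = 0.014).

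In wt cells the TGFB2 call was lost without any 1 of the 4 wt vehicle and TGFB2 libraries (1.09 to 1.35, adjusted p = 0.061 to 0.13), and the call for the mean without any 1 of the 6 wt vehicle and TGFB libraries (0.79 to 1.05, adjusted p = 0.058 to 0.22). In mt cells the TGFB1 call was lost without mt TGFB1 replicate 2 (0.58, adjusted p = 0.41), mt vehicle replicate 1 (0.82, 0.19) or mt vehicle replicate 2 (1.37, 0.052). The mt TGFB2 call was lost without either mt TGFB2 library or mt vehicle replicate 1 (0.94 to 1.20, adjusted p = 0.086 to 0.13), and the call for the mean without mt TGFB1 replicate 2 (0.87, 0.058) or mt vehicle replicate 1 (0.88, 0.12). Without the 4 mt replicate 1 libraries, Tgfbr1 stood at 1.16 with TGFB1 (adjusted p = 0.10), 0.96 with TGFB2 (0.17) and 1.06 for their mean (0.076). Between the lines it differed by 0.17 ± 0.32 in vehicle (adjusted p = 0.93), and with BMP2 it stood at -0.20 ± 0.32 in wt (adjusted p = 0.99) and 0.22 ± 0.32 in mt cells (adjusted p = 1).

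Acvrl1, the gene of the type I kinase ALK1, gave the largest change with TGFB among the 5 members and rose in both lines. In wt cells it stood at 12.9 and 13.4 CPM in vehicle, 65.1 and 72.2 with TGFB1, 66.1 and 75.7 under TGFB2, and 16.1 and 16.6 with BMP2. In mt cells it stood at 17.8 and 7.91 CPM in vehicle, 60.6 and 56.3 with TGFB1, 47.7 and 63.7 under TGFB2, and 26.3 and 13.1 with BMP2. All 8 TGFB libraries lay above all 8 vehicle and BMP2 libraries, and the mt vehicle and mt BMP2 pairs were the widest in relative terms. The rise in wt cells was 5.22-fold with TGFB1 (2.38 ± 0.37, adjusted p = 0.0011) and 5.39-fold with TGFB2 (2.43 ± 0.37, adjusted p = 0.00087). In mt cells it was 4.58-fold with TGFB1 (2.19 ± 0.37, adjusted p = 0.0022) and 4.37-fold with TGFB2 (2.13 ± 0.37, adjusted p = 0.0023). The 4 calls were kept with any 1 library left out, and without the 4 mt replicate 1 libraries the mt values were 2.83 (adjusted p = 0.0030) and 3.01 (0.0023).

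The 2 lines did not differ detectably in Acvrl1. The difference in the mean TGFB effect was -0.25 ± 0.44 with a 95% interval of -1.21 to 0.71 (adjusted p = 1), and mt against wt in vehicle was -0.04 ± 0.36 (adjusted p = 0.99). BMP2, a ligand that does not use ALK1 as its usual receptor, gave 0.31 ± 0.36 in wt (adjusted p = 0.97) and 0.61 ± 0.37 in mt cells (adjusted p = 1). Acvrl1 is best known from endothelium. The same subset of endothelial markers, Pecam1, Cdh5, Tie1, Emcn, Cldn5, Esam and Erg, chosen after its values were seen, summed to 0.706 to 5.01 CPM in TGFB libraries (median 1.53). In the others it summed to 0.555 to 2.50 CPM (median 0.92). With Kdr, Tek and Egfl7 added, the list summed to 22.1 to 37.4 CPM in TGFB libraries and to 38.5 to 95.9 CPM in the others. Their part in the level of Acvrl1 was not tested.

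Counted over the members, TGFB1 in wt cells called 2 of 5 genes (Eng and Acvrl1) and TGFB2 called 4 (all but Tgfbr2), where 19% and 20.1% of all genes tested were called. In mt cells TGFB1 and TGFB2 each called 3 of 5 (Tgfbr1, Tgfbr2 and Acvrl1), against 16.4% and 17.4% of all genes. For the mean of both ligands 4 of 5 members were called in each line, against 25.5% of all genes in wt and 23.3% in mt cells; the member left out was Tgfbr2 in wt and Tgfbr3 in mt cells. The ligand contrasts of a line share its vehicle libraries. The median log2 fold change of all genes was -0.01 with TGFB1 and 0.02 with TGFB2 in wt cells. A fit of only the groups compared, with fewer libraries to estimate the spread, ended 10 of the members' calls. In mt cells they were those of Tgfbr1 with TGFB1 (1.09, adjusted p = 0.23), TGFB2 (1.20, 0.072) and their mean (1.14, 0.057), of Tgfbr2 with TGFB1 (-0.88, 0.21) and TGFB2 (-0.87, 0.14), of Eng for the mean (0.97, 0.095) and of Acvrl1 with TGFB1 (2.22, 0.066). Between the lines they were those of Eng in vehicle (1.52, adjusted p = 0.28) and of Tgfbr3 in vehicle (-2.39, 0.072) and under TGFB1 (-1.99, 0.071). BMP2 called 0 of 5 members in either line by edgeR, against 0% of all genes in wt and 0.0416% in mt cells; at an unadjusted p under 0.05 the counts were 0 and 1, and DESeq2 called 0 in both. The difference in ligand effect between the lines was called by edgeR for 0 of 5 members with TGFB1, TGFB2 and BMP2, against 0.0119%, 0.0475% and 0% of all genes. At an unadjusted p under 0.05 these counts were 1, 1 and 0, Tgfbr2 each time, and DESeq2 called 0 of them.

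**Figure D3:**
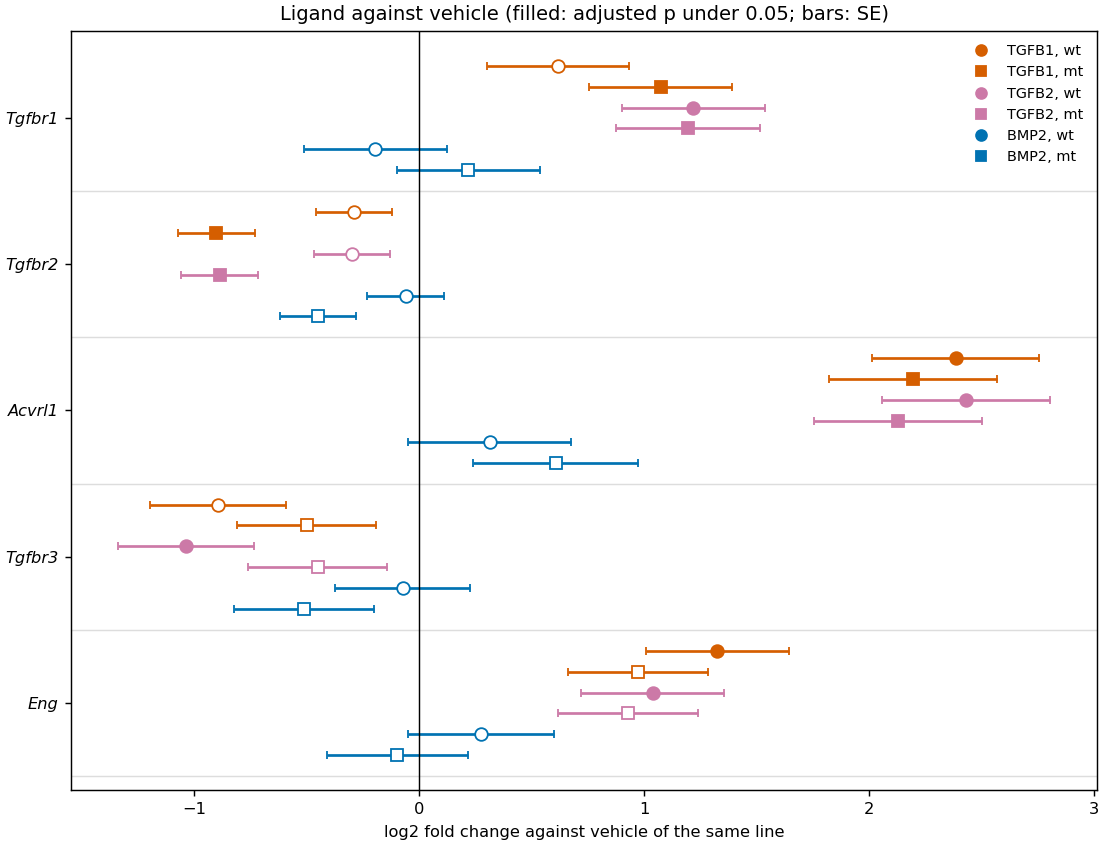
Log2 fold change against the vehicle of the same line (horizontal axis) for each gene with TGFB1, TGFB2 and BMP2 in wt (circles) and mt (squares); bars are the SE, and filled points have an adjusted p under 0.05. Acvrl1 lies at 2.13 to 2.43 with TGFB, Tgfbr1 and Eng at 0.62 to 1.32, and Tgfbr2 and Tgfbr3 below 0, while none of the BMP2 points is filled.

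TGFB2 was set directly against TGFB1 at the same dose and time, since betaglycan is known as a presenter of TGFB2. In wt cells Tgfbr1 had the largest ligand difference of the 5, with 67.4 and 61.4 CPM under TGFB2 against 37.1 and 47.7 under TGFB1. It was 0.60 ± 0.32 with a 95% interval of -0.09 to 1.29 and was not called (adjusted p = 1). The other members lay between -0.29 (Eng) and 0.05 (Acvrl1) in wt cells. In mt cells all 5 lay between -0.07 (Acvrl1) and 0.12 (Tgfbr1). None of the 5 was called in either line by edgeR, DESeq2 or at an unadjusted p under 0.05, where 0% of all genes were called by edgeR in each line; the widest interval, that of Acvrl1 in mt cells, ran from -0.84 to 0.70.

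Ratios of reads within a library, which need no scaling between libraries, show the shift among receptors of like role. Reads of Acvrl1 per read of Tgfbr1 were 0.513 and 0.445 in wt vehicle, 1.75 and 1.51 with TGFB1, 0.981 and 1.23 under TGFB2, and 0.870 and 0.562 with BMP2. In mt cells they were 0.703 and 0.214 in vehicle, 1.26 and 0.680 with TGFB1, 0.672 and 0.889 under TGFB2, and 0.892 and 0.307 with BMP2. In wt cells the 4 TGFB libraries lay above the 4 others, and in mt cells the ranges overlapped. Reads of Eng per read of Tgfbr3 were 0.0981 and 0.0474 in wt vehicle, 0.464 and 0.232 with TGFB1, 0.356 and 0.244 under TGFB2, and 0.0872 and 0.0876 with BMP2. In mt cells, where reads of the targeted gene were few, they were 1.49 and 0.663 in vehicle, 3.73 and 2.15 with TGFB1, 3.15 and 2.20 under TGFB2, and 1.77 and 1.09 with BMP2. The co-receptor ratio was higher with TGFB1 or TGFB2 than with vehicle or BMP2 in both lines, without overlap.

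**Figure D4:**
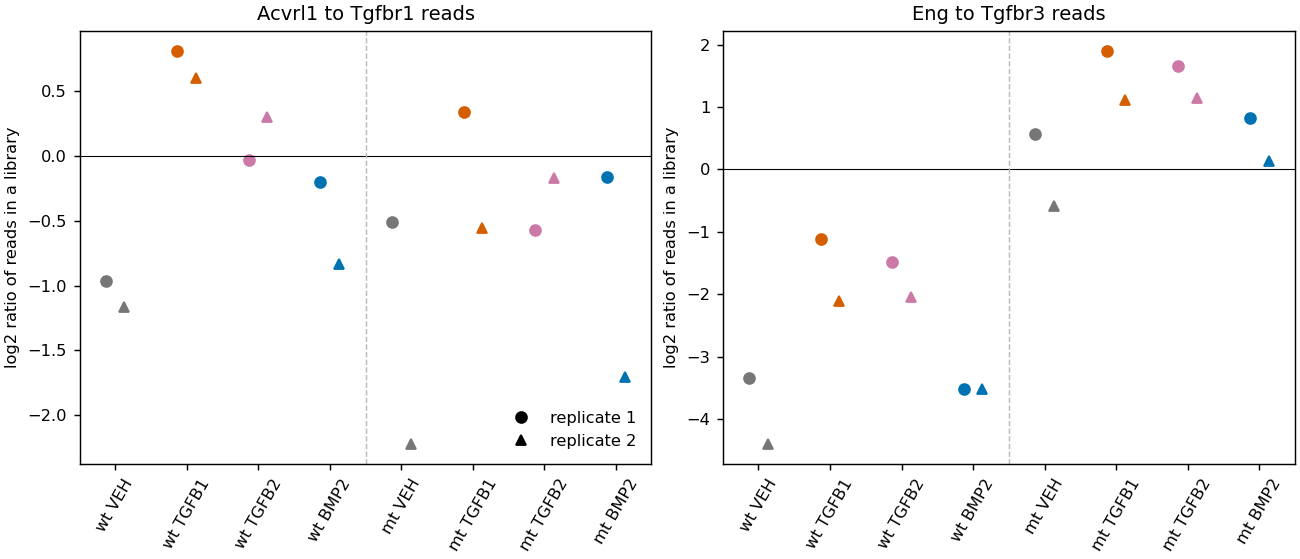
Log2 ratio of reads within each library (vertical axes) by group; circles are replicate 1 and triangles replicate 2, and 0 marks equal reads. Acvrl1 reads exceed Tgfbr1 reads in both wt TGFB1 libraries (ratios 1.75 and 1.51), and Eng reads exceed Tgfbr3 reads in 7 of the 8 mt libraries and in none of the 8 wt libraries.

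Levels of different genes were compared per length, as CPM per kb of the longest and of the shortest full coding transcript in a GRCm38 annotation, since the gene models behind the counts are not stated in the sources used here. On this scale Tgfbr2 had the highest level of the 5 in vehicle and BMP2 in both lines under either length. With TGFB1 or TGFB2, Acvrl1 was first in wt cells under either length; in mt cells it was first by the longest transcript and behind Tgfbr1 and Tgfbr2 by the shortest. Eng was last in all wt groups and Tgfbr3 last in all mt groups under either length. Each order takes the longest transcript of every gene or the shortest of every gene, and mixed lengths can change the first place. With TGFB1 in wt cells, Acvrl1 stood at 18.9 by its longest transcript and Tgfbr2 at 32.5 by its shortest. With BMP2 in mt cells, Tgfbr2 stood at 19.0 by its longest and Tgfbr1 at 21.1 by its shortest.

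The genes whose group means followed a member most closely, by Pearson correlation of log2 CPM over the 8 groups among the 12399 genes averaging 5 CPM or more, are given as a description. Each point is the mean of 2 libraries of unequal depth, and all genes share those libraries. Ccdc28a (r = 1.00), Mmgt1 (0.99) and Ube2b (0.99) were nearest to Tgfbr1, and Dtna, a dystrobrevin, 9030409G11Rik, the kazrin entry, and mKIAA1026, whose listed clone carries the name of that entry (0.97 each), to Tgfbr2. Zfp346, Vps52 (0.99 each) and Abcc10 (0.98) were nearest to Tgfbr3, and Dennd5b, Cpe, a carboxypeptidase, and Nr1d1, a clock repressor (0.99 each), to Eng. Ppard, a nuclear receptor, Tmem5 and Synpo, an actin-binding protein, (0.99 each) were nearest to Acvrl1. Among the members the highest value was that of Acvrl1 with Tgfbr1 (0.86), and the lowest were Eng with Tgfbr3 (-0.89) and Acvrl1 with Tgfbr2 (-0.83).

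The other type I and type II receptors of the family, which serve activins and BMPs, are given beside the members. For the mean of TGFB1 and TGFB2, 1 of 8 tested rose and 2 fell in wt cells, where 25.5% of all genes were called, and 0 rose and 2 fell in mt cells (2 and 2 blocked), where 23.3% were. The same shares of all genes apply to the lists that follow for the mean of both ligands. The blocked test called 39.8% of all genes in wt and 40.3% in mt cells for that mean. The medians were 0.20 and 0.23, against 0.92 and 0.95 for the 5 members and 0.00 and -0.01 for all genes. The activin type I receptor gene Acvr1b fell in wt (-0.98 ± 0.17, adjusted p = 0.0014) and mt cells (-1.12 ± 0.18, 0.00093), as did the activin type II receptor gene Acvr2b (-1.43 ± 0.41, 0.022, and -1.69 ± 0.46, 0.020). Acvr2b was scarce, at means of 1.44 CPM in wt and 1.04 in mt vehicle and 0.20 to 0.65 in the TGFB groups. The BMP type II receptor gene Bmpr2 rose in wt cells (1.54 ± 0.46, adjusted p = 0.029) and stood at 0.75 ± 0.44 in mt cells (0.26). Between the lines in vehicle, Acvr1b was lower in mt cells (-1.58 ± 0.21, adjusted p = 0.0019) and Bmpr1b, a BMP type I receptor, higher (2.08 ± 0.35, adjusted p = 0.0076). Bmpr1b was also scarce, at means of 0.75 CPM in wt and 3.14 in mt vehicle. Without the 4 mt replicate 1 libraries 1 of 8 fell with TGFB in mt cells, and none was called between the lines in vehicle.

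Among TGFB ligands, latency proteins and activators, 5 of 11 tested rose and 2 fell in wt cells, and 4 rose and 2 fell in mt cells, with medians of 0.56 and 0.49. The latent TGFB binding proteins Ltbp1 (2.62 ± 0.24 in wt, adjusted p = 3e-05; 1.29 ± 0.22 in mt, 0.0014) and Ltbp2 (2.51 ± 0.37, 0.00044; 3.05 ± 0.38, 0.00017) rose. The 2 that fell in each line were Ltbp4 (-0.85 ± 0.23 in wt, adjusted p = 0.015; -1.55 ± 0.22 in mt, 0.00044) and Itgb8, the beta subunit of an integrin that frees TGFB from its latent complex (-3.89 ± 0.44, 9.9e-05; -2.69 ± 0.48, 0.0018). Ltbp1 was also higher in mt than in wt vehicle (3.03 ± 0.27, adjusted p = 0.00013). Of the other ligands of the co-receptors and of ALK1, 4 of 8 were tested. Inhba, the activin A subunit, rose (2.76 ± 0.37, adjusted p = 0.00026 in wt; 1.22 ± 0.34, 0.021 in mt), while Bmp4 (-2.43 ± 0.24, 4.6e-05; -2.31 ± 0.24, 5.4e-05) and the inhibin subunit Inha, whose product binds betaglycan (-1.79 ± 0.33, 0.0020; -1.74 ± 0.35, 0.0037), fell. Gdf2, the gene of BMP9, Bmp10, Bmp2 and Bmp7 did not pass the filter.

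Downstream of the receptors, 1 of 6 receptor and common Smads was called in each line (3 blocked): Smad9, of the BMP branch, fell (-3.06 ± 0.26, adjusted p = 1.9e-05 in wt; -3.67 ± 0.28, 5.3e-06 in mt). Of 17 receptor-level inhibitors and turnover factors, 5 rose and 4 fell in wt cells and 6 rose and 4 fell in mt cells. The inhibitory Smad6 (-2.45 ± 0.25, adjusted p = 4.8e-05; -2.13 ± 0.25, 0.00011), the decoy receptor Bambi (-1.91 ± 0.21, 7.9e-05; -1.39 ± 0.21, 0.00069) and the caveolin gene Cav1 (-1.23 ± 0.18, 0.00038; -1.17 ± 0.18, 0.00061) fell in wt and mt cells, and the TGFB feedback inhibitor Pmepa1 rose in both (3.74 ± 0.43, adjusted p = 0.00010; 2.33 ± 0.39, 0.0013). Of 8 scaffolds and shedding enzymes, 2 rose and 0 fell in wt cells (3 and 1 blocked; 25.5% of all genes called), and 1 rose and 2 fell in mt cells (23.3% of all genes called). Mmp14, a membrane protease that can shed betaglycan and endoglin, rose (2.12 ± 0.37, adjusted p = 0.0014 in wt; 1.54 ± 0.36, 0.0087 in mt), as did Mmp16 in wt cells (0.99 ± 0.27, 0.018; 0.13 ± 0.26 in mt, 0.78). The protease inhibitors Timp2 (-1.09 ± 0.18, adjusted p = 0.0012) and Timp3 (-0.80 ± 0.22, 0.022) fell in mt cells, and stood at -0.30 ± 0.19 (0.29) and 0.65 ± 0.23 (0.062) in wt cells; without the 4 mt replicate 1 libraries no gene of this list fell.

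Targets of the ALK5 branch were called mostly as higher, with 3 exceptions in mt cells, and those of the ALK1 and BMP branch as lower; the lists were not tested against each other. Of 11 SMAD2/3 targets, 6 rose and 0 fell in wt cells (median 1.78), and 8 rose and 3 fell in mt cells (median 1.31; 6 and 1 without the 4 mt replicate 1 libraries). Ctgf, which encodes a matricellular growth factor, was among those that rose in wt (2.62 ± 0.28, adjusted p = 6.9e-05) and mt cells (2.10 ± 0.27, adjusted p = 0.00022). The 3 that fell in mt cells, named after their values were seen, were the matrix genes Tgfbi (-3.15 ± 0.60, adjusted p = 0.0026), Fn1 (-1.37 ± 0.37, 0.019) and Col1a1 (-0.99 ± 0.33, 0.047). Of 10 SMAD1/5 targets tested, 0 rose and 8 fell in wt cells (median -1.83), and 0 rose and 7 fell in mt cells (median -2.37), while Acvrl1, the type I receptor of that branch for TGFB, was higher in the same libraries. Atoh8, a basic helix-loop-helix factor, fell in wt (-2.62 ± 0.24, adjusted p = 2.9e-05) and mt cells (-4.72 ± 0.26, 1.1e-06). It was the 1 SMAD1/5 target called for the difference between the lines in the mean TGFB effect, where 0.184% of all genes were called. Of the 10 targets, 3 were called lower and 0 higher in mt than in wt cells with TGFB1, and 3 and 0 with TGFB2. Atoh8 was among the 3 each time. The shares of all genes called there were 1.79% and 1.91%. Several genes stand on 2 of these lists, among them Pmepa1, Skil, Smad7, Ltbp2, Smad6 and Smad9.

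**Figure D5:**
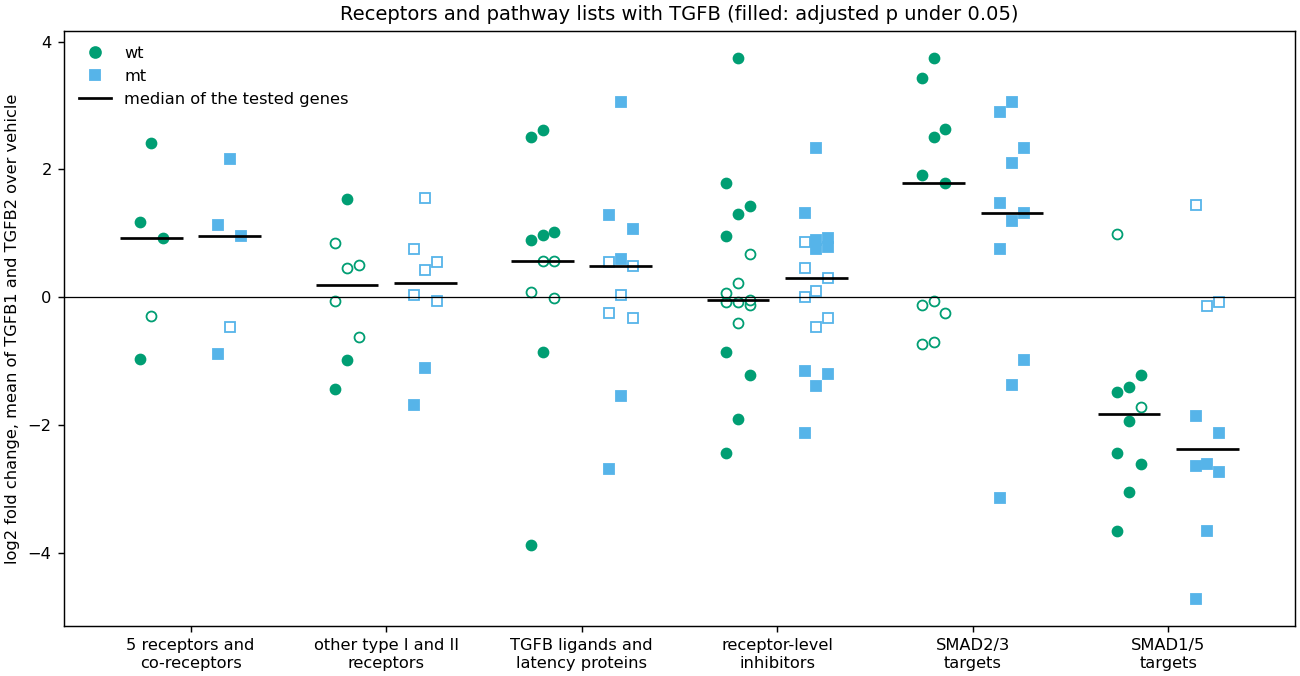
Log2 fold change of the mean of TGFB1 and TGFB2 over vehicle (vertical axis) for the 5 genes and 5 pathway lists in wt (circles) and mt (squares); filled points have an adjusted p under 0.05 and lines are medians of the tested genes. The medians of the SMAD2/3 targets are 1.78 and 1.31, those of the SMAD1/5 targets -1.83 and -2.37, and those of the 5 genes 0.92 and 0.95.

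With BMP2 no gene of these lists was called in wt cells, where 0% of all genes were called. The share of all genes called with BMP2 in mt cells was 0.0416%, and 0.232% by the blocked test. In mt cells the homeobox BMP target Dlx3 (3.91 ± 0.51, adjusted p = 0.019) and the inhibitory Smad7 (1.55 ± 0.22, adjusted p = 0.034) rose, Smad7 standing on 2 lists. Dlx3 was nearly absent in mt vehicle, at a mean of 0.23 CPM (SD 0.02), and stood at 3.55 (SD 0.09) with BMP2. Its wt mean was also higher with BMP2 (6.66, SD 0.58) than in vehicle (2.26, SD 1.22), without a call. The blocked test called 2 genes on each of the 3 lists concerned, and without the 4 mt replicate 1 libraries it was 0. Between the lines in vehicle, Dlx3, at that low mt level, was lower (-3.27 ± 0.51, adjusted p = 0.0044), Inhba higher (2.36 ± 0.39, 0.0071) and the integrin subunit Itgav higher (0.87 ± 0.22, 0.049) in mt cells. Of the SMAD1/5 targets 1 was called there (5 blocked), of the SMAD2/3 targets 0 (5 blocked) and of the receptor-level inhibitors 0 (6 blocked). Of all genes, 3.58% were called between the lines in vehicle, and 10.3% by the blocked test.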

How the data were processed

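Polyadenylated RNA of 16 libraries was sequenced. The authors deposited 1 table for each replicate number, with raw counts per gene and rpm, reads scaled to 1e+06 over the listed entries; the rpm matched counts over column totals to within 2.9e-11. Alignment was with TopHat or TopHat2 to mm9, per the submitters' processing notes; the sources used here give no counting program, gene models or strandedness. In 1 table, 2 entries without a gene name (column totals and a stray value) were left out.

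The counts were then tested with edgeR 4.0.16 in R 4.3.3, using filterByExpr, TMM, a robust quasi-likelihood fit of 8 group means (8 residual degrees of freedom, biological coefficient of variation 0.274), the F test and Benjamini-Hochberg adjustment over 16835 genes. Each SE is the size of the log2 fold change divided by the root of its F. CPM uses TMM-scaled totals; correlations use a prior count of 2. Tests were tried on simulated data. Alternatives were the replicate block, RLE size factors, no low-count filter, DESeq2 1.42.0, only the groups compared, the fit without the 4 mt replicate 1 libraries, and leaving out each library. The members, lists and alternatives were chosen with earlier results of these data known. Named genes are the 5 members, the 3 nearest genes by correlation for each, and up to 3 called genes with the smallest p per list and comparison; other names are identified as such. For 1 gene that meets this rule no values are given.

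The replicate numbers pair the samples: each number has its own table, and after removal of group means, all 28 of 28 group pairs had a correlation above 0.1 between their same-numbered libraries (0.20 to 0.83, median 0.57). The blocked fit had a coefficient of variation of 0.17.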

Additional observations from a re-analysis of the deposited data

How the results depend on the processing

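Of 90 log2 values of the 5 members, 26 were called; over alternatives other than leaving out 1 library, 135 of 156 values kept their call and direction, and 75 of 120 did with 1 library left out, which leaves 1 library in a group. Counts of members called that moved by over 1.5 times, and for the block all that moved, were as follows (the cause was not tested). One alternative fitted only the groups compared, which rests on 2 residual degrees of freedom for a pair of groups. In mt cells it called 0 members for TGFB1 (1.88% of all genes), 1 for TGFB2 (6.72%) and 2 for the mean of both (14.5%). Between the lines it called 0 in vehicle (0.177% of all genes) and 0 with TGFB1 (0.686%). Without the 4 mt replicate 1 libraries, 1 was called for TGFB1 and 1 for TGFB2 in mt cells, and 0 between the lines in vehicle, TGFB1 and TGFB2. Between the lines DESeq2 called 2 with TGFB1 (3.97% of genes with an adjusted p) and 2 with BMP2 (6.7%). It called 1 (Tgfbr2) for the difference in the mean TGFB effect (1.69%). Without the low-count filter 2 were called between the lines with BMP2 (2.66% of all genes). With the replicate block, 4 members were called for TGFB1 in wt cells, where 33.4% of all genes were called. In mt cells the block called 4 each with TGFB1 (32.5% of all genes) and TGFB2 (33.5%). Between the lines it called 3 in vehicle (10.3% of all genes), 2 with TGFB1 (7.88%) and 2 with BMP2 (12.7%). Beyond the blocked values given with the results, the pairing changed no other call of a member.

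Leaving out 1 library gave 2 to 3 members for TGFB1 in mt cells, 1 to 3 for TGFB1 in wt cells, 2 to 3 for TGFB2 in mt cells, 1 to 2 for TGFB2 in wt cells, 3 to 4 and 1 to 3 for the mean of both in mt and wt cells, 1 to 2 between the lines in vehicle, 0 to 1 with TGFB1, 0 to 1 with TGFB2 and 1 to 1 with BMP2. Among called values none reversed in sign. Among values not called, those without the 4 mt replicate 1 libraries that reversed were Acvrl1 for the difference between the lines in the mean TGFB (0.52), TGFB1 (0.45) and TGFB2 effect (0.58), Eng for that in the TGFB2 effect (0.11), and Acvrl1 between the lines with BMP2 (-0.31) and for TGFB2 against TGFB1 in mt cells (0.18). Others were Eng with BMP2 in mt cells (0.25) and TGFB2 against TGFB1 in mt cells for Tgfbr1 (-0.21) and Tgfbr3 (-0.072). Tgfbr2 between the lines was at 0.0047 with DESeq2 and 0.0055 with RLE size factors for TGFB1, and at -0.0057 without the low-count filter for TGFB2.

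With 1 library left out, uncalled values that changed sign ranged as follows. TGFB2 against TGFB1 in mt cells ran from -0.30 to 0.13 for Acvrl1, -0.31 to 0.22 for Eng, -0.22 to 0.58 for Tgfbr1, -0.0044 to 0.040 for Tgfbr2 and -0.092 to 0.22 for Tgfbr3. The same contrast in wt cells ran from -0.054 to 0.14 for Acvrl1, -0.038 to 0.027 for Tgfbr2 and -0.50 to 0.28 for Tgfbr3. The difference in the mean TGFB effect ran from -0.72 to 0.44 for Acvrl1, -0.59 to 0.25 for Eng and -0.028 to 0.52 for Tgfbr1. That in the TGFB1 effect ran from -0.66 to 0.50 for Acvrl1 and -0.71 to 0.13 for Eng, that in the TGFB2 effect from -0.78 to 0.39 for Acvrl1, -0.48 to 0.37 for Eng and -0.27 to 0.28 for Tgfbr1, and that in the BMP2 effect from -0.26 to 0.99 for Acvrl1 and -0.73 to 0.11 for Eng. Between the lines, Acvrl1 ran from -0.74 to 0.43 in vehicle and -0.31 to 0.65 with BMP2, Tgfbr1 from -0.14 to 0.41 in vehicle and Tgfbr2 from -0.030 to 0.031 with TGFB1. With BMP2 against vehicle, Eng ran from -0.46 to 0.38 and Tgfbr1 from -0.11 to 0.52 in mt cells, and Tgfbr1 from -0.59 to 0.088 and Tgfbr3 from -0.31 to 0.19 in wt cells.

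Over all genes, the block raised the share called from 19% to 33.4% for TGFB1 in wt cells and from 3.58% to 10.3% between the lines in vehicle. Of the list counts, 52 of 240 moved by over 1.5 times in alternatives other than leaving out 1 library. Reads were fewest for Eng and for Tgfbr3 in mt cells, at 51 and 70 in the libraries that held least of each.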
